A study of Mus musculus with 9 samples.

Results

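The genes described here are 9 genes best known from megakaryocytes and the platelets they shed. They are Pf4, Ppbp, Itga2b, Gp1ba, Gp1bb, Gp9, Gp6, Treml1 and Tubb1. They were chosen by name, with their difference between the ages already known, out of 39179 genes listed in each count table, and all 9 were found. RNA was sequenced from single capillaries and the cells around them, cut by laser microdissection from the ossification front (OF), the zone of the femur where new bone forms below the growth plate. The juvenile group was 5 libraries from mice aged 4 weeks, and the adult group was 4 libraries from mice aged 12 weeks. All mice carried the endothelial reporter Tg(TIE2GFP)287Sato/J on a C57BL/6 background, in which the Tie2 promoter drives GFP in endothelial cells, and the labels name no treatment. The reporter guided the cutting. It did not select cells, so each library holds RNA of whatever lay in the cut pieces, blood cells included.

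Megakaryocytes are large polyploid cells of the bone marrow that lie against sinusoids and release platelets into the blood. Platelets have no nucleus but carry megakaryocyte RNA. The 9 genes serve several steps of platelet function. Pf4 and Ppbp encode CXC chemokines stored in alpha granules. Itga2b encodes the alpha IIb chain of the fibrinogen receptor. Gp1ba, Gp1bb and Gp9 encode chains of the receptor for von Willebrand factor. Gp6 encodes a collagen receptor, Treml1 a receptor of the alpha granule membrane, and Tubb1 the beta-1 tubulin of the platelet's marginal band. GATA1, NFE2 and ETS factors such as FLI1 are known regulators of megakaryocyte genes.

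The bases in front of 3 members are shown because the text returns to these genes: Pf4 and Ppbp are neighbours with the highest levels, and Gp1ba holds the most GATA letters. Each stretch is the 250 bases before the RefSeq start on GRCm38.p6, read 5′ to 3′ on the gene's strand. Capitals mark a GATA match (AGATAA or AGATAG, or TGATAA or TGATAG) or an ETS match (GGAAGT), on either strand. Pf4 is taken from chr5:90772185-90772434, Ppbp from chr5:90768268-90768517 and Gp1ba from chr11:70638872-70639121, all on the plus strand.
Pf4: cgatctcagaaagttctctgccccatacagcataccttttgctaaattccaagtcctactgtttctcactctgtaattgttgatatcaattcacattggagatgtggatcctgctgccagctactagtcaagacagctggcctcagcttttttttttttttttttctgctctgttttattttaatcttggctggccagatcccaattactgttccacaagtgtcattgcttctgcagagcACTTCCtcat
Ppbp: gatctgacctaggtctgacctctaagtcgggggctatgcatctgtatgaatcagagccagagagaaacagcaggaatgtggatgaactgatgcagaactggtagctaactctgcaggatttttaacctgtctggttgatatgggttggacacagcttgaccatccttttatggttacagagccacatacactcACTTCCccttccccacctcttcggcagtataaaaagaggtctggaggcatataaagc
Gp1ba: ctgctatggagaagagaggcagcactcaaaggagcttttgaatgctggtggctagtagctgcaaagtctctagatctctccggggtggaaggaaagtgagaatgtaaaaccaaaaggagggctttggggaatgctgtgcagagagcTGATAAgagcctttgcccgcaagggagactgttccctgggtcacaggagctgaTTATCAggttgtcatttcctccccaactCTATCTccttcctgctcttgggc

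Among the 9 members, 3 held a GATA match in this window (Gp1ba, Gp1bb and Gp6), against 26.5% of 32851 RefSeq windows of the same length. An ETS match was present in 4 members (Pf4, Ppbp, Itga2b and Gp9), against 19.7% of all windows. Gp1ba held 3 GATA matches, at -104 to -99, -51 to -46 and -23 to -18 from the start. The ETS match of Pf4 lay at -10 to -5 and that of Ppbp at -57 to -52. TGAGTCA, the core letters of the NFE2 site, was in 0 of 9 member windows and in 4.46% of all windows. The letters TATAAA were in 1 member window, that of Ppbp, and in 12.4% of all windows. Treml1 and Tubb1 held none of these letters. A match is a run of letters and no measure of binding, and its absence concerns this window only.

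In the GENCODE annotation of GRCm38, Pf4 (ENSMUSG00000029373) spans chr5:90772435-90773383 and Ppbp (ENSMUSG00000029372) chr5:90768518-90770063, side by side on the plus strand. Itga2b (ENSMUSG00000034664) lies at chr11:102453297-102470122 on the minus strand and Gp1ba (ENSMUSG00000050675) at chr11:70639122-70642036 on the plus strand. Gp9 (ENSMUSG00000030054) lies at chr6:87778072-87779768, Treml1 (ENSMUSG00000023993) at chr17:48359916-48367176 and Tubb1 (ENSMUSG00000016255) at chr2:174450695-174457882, all on the plus strand. Gp6 (ENSMUSG00000078810) lies at chr7:4363965-4397744 and Gp1bb (ENSMUSG00000050761) at chr16:18620317-18622403, both on the minus strand. All 9 are protein coding, and counts are over exons. The exons of Gp1bb overlap those of Sept5, a septin gene on the same strand, over 1902 bases or 91.1% of the Gp1bb exons, so the counts of Gp1bb are uncertain. No other member shared exon bases with another annotated gene.

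Libraries held between 4856833 and 8077362 counts. Of 13418 genes that passed the filter on low counts, 520 (3.88%) differed between the ages by edgeR (quasi-likelihood test, adjusted p below 0.05), with 253 (1.89%) higher in adult and 267 (1.99%) higher in juvenile libraries. Adult replicate 4 stood apart for the genes described here, and values are therefore given with and without it. Juvenile replicates 4 and 5 held 524 and 439 counts of the Y-linked gene Ddx3y and at most 11 of Xist, whereas the other 7 libraries held at most 1 of Ddx3y and at least 2965 of Xist. The 6 endothelial markers (Pecam1, Cdh5, Kdr, Emcn, Tek and Egfl7) all had counts in every library, with summed levels of 463 to 739 CPM (counts scaled to a common library size) in juvenile and 536 to 633 CPM in adult libraries, and 0 of 6 were called by edgeR (0 at an unadjusted p under 0.05, and 0 by DESeq2).

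The 9 members together took 531 counts in the 5 juvenile libraries and 41168 in the 4 adult libraries. Per library they took between 69 and 145 counts in juvenile mice, or 0.00118% to 0.00254% of the library. In adult mice they took 5315, 594, 504 and 34755 counts in replicates 1 to 4, or 0.0658%, 0.0102%, 0.00648% and 0.482% of the library. Adult replicate 4 thus held 83.3% of all member counts and adult replicate 1 held 12.7%. Every adult library was above every juvenile library in this sum, and the adult libraries differed far more among themselves than the juvenile ones. Counts were found for 3 or 4 of the members in each juvenile library and for 7, 6, 4 and 9 of them in adult replicates 1 to 4. In bulk samples, fewer cells of a type and less RNA per cell cannot be told apart.

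**Figure D1:**
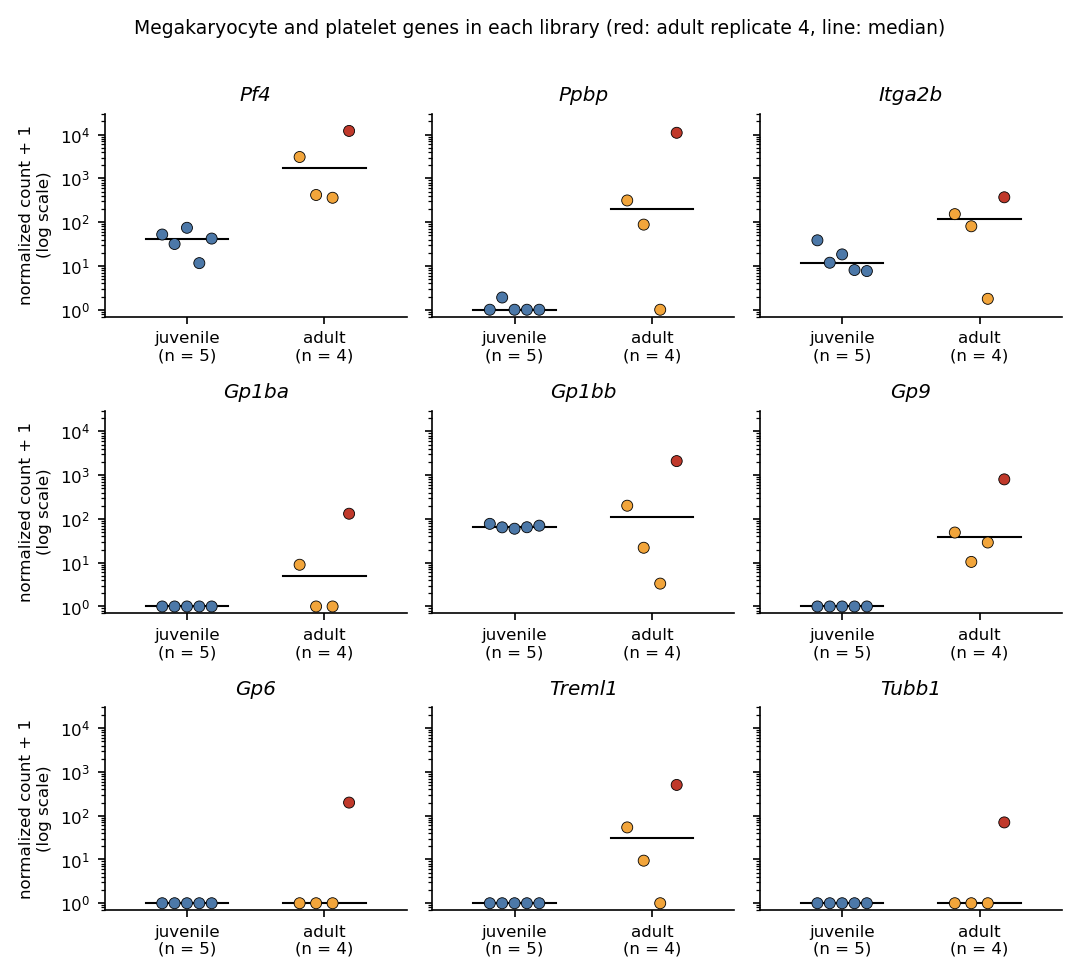
Normalized count plus 1 (log scale) of each of the 9 genes in every library, by age (juvenile, n = 5, adult, n = 4), with each point a library and the line the median. The red point, adult replicate 4, is the highest in all 9 panels, and only Pf4 and Gp9 have every adult library above every juvenile library.

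Normalized counts, which are counts divided by a library's scaled size, are used for the members in turn. Pf4, platelet factor 4, was the member with the highest mean in adult libraries and was found in all 9 libraries. Its normalized counts in juvenile replicates 1 to 5 were 51.2, 30.7, 73.5, 10.6 and 41.2, with a mean of 41.4 ± 23.4 (SD, n = 5). In adult replicates 1 to 4 they were 3083, 417, 360.3 and 12147, with a mean of 4002 ± 5577 (SD, n = 4). Every adult library was above every juvenile library. The log2 difference (adult over juvenile) was 6.60 with a standard error of 1.01, and 4.99 with a standard error of 0.73 without adult replicate 4. The adult mean without that library was 1287.

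Ppbp, pro-platelet basic protein, is the precursor of the platelet chemokine NAP-2. It had 1 count in juvenile replicate 2 and 0 in the other 4 juvenile libraries. Normalized counts in adult replicates 1 to 4 were 313, 87.0, 0 and 11017. Adult replicate 3 was at 0, at the level of most juvenile libraries, although it held 464 counts of Pf4. Adult replicate 4 held 96.5% of all Ppbp counts. The adult mean was 2854 ± 5443 (SD, n = 4) and 133 without adult replicate 4.

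The balance of the 2 granule chemokines differed between libraries. Ppbp made up 47.6% of their joint counts in adult replicate 4 (95% Wilson interval 47.0% to 48.1%, of 29458 counts). It made up 9.21% in adult replicate 1 (8.41% to 10.1%, of 4681 counts) and 17.3% in adult replicate 2 (14.1% to 20.9%, of 481 counts). In adult replicate 3 it was 0% (up to 0.821%, of 464 counts). These 4 intervals do not overlap. The juvenile libraries had 9 to 55 joint counts, and their upper bounds were between 6.53% and 29.9%. The interval of every juvenile library overlapped that of adult replicate 3. Those of juvenile replicates 2, 4 and 5 overlapped that of adult replicate 1, and those of juvenile replicates 2 and 4 that of adult replicate 2. Differences in this share between libraries were not tested. The intervals cover counting error only, since amplified reads without molecular identifiers are not independent molecules.

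**Figure D2:**
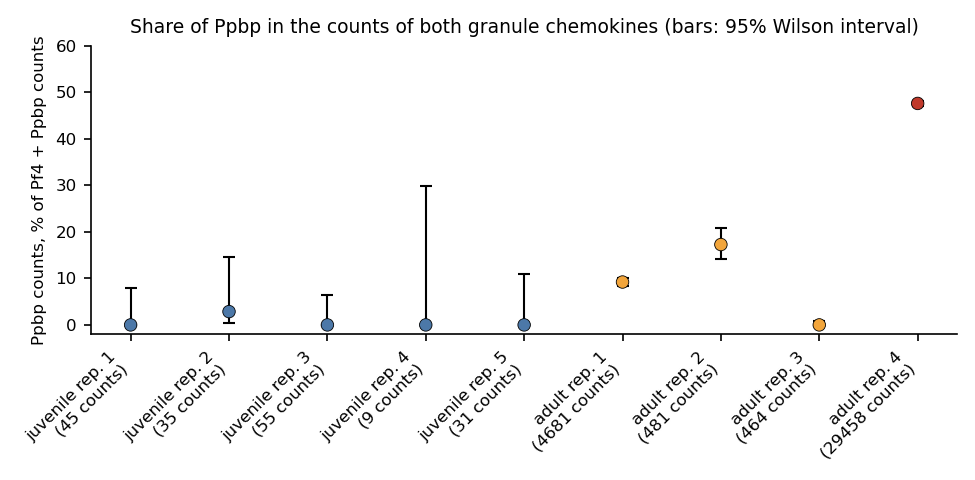
Ppbp counts as a percentage of Pf4 plus Ppbp counts in each library, with the joint count under each name and bars for the 95% Wilson interval. The share was 47.6% in adult replicate 4, 9.21% and 17.3% in adult replicates 1 and 2, and 0% in adult replicate 3.

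Itga2b, whose chain pairs with integrin beta 3, was found in all 9 libraries. Its normalized counts were 37.5, 10.8, 17.4, 7.07 and 6.65 in juvenile replicates 1 to 5, a mean of 15.9 ± 12.8 (SD, n = 5). They were 152, 79.7, 0.777 and 369.6 in adult replicates 1 to 4, a mean of 150.4 ± 159 (SD, n = 4). Adult replicate 3, with 1 count, was below every juvenile library, and the other 3 adult libraries were above all of them. The log2 difference was 3.23 with a standard error of 1.06, and 2.29 with a standard error of 1.13 without adult replicate 4.

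The 3 genes of the von Willebrand factor receptor gave 3 different patterns. Gp1ba, the chain that binds the ligand, had 0 counts in all juvenile libraries, 11 in adult replicate 1, 0 in adult replicates 2 and 3 and 166 in adult replicate 4. Gp9 had 0 counts in all juvenile libraries and 66, 9, 36 and 1018 in adult replicates 1 to 4, so the ages did not overlap. Against a juvenile floor of 3 counts per library, the adult mean of Gp9 was at least 62.7-fold higher, and at least 8.05-fold higher without adult replicate 4. For Gp1ba it was at least 9.81-fold higher with adult replicate 4, and without that library the adult mean was under the floor.

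Gp1bb was found in all 9 libraries and was the most even member in juvenile mice. Its normalized counts were 76.2, 63.3, 58.8, 63.6 and 69.2 in juvenile replicates 1 to 5, a mean of 66.2 ± 6.71 (SD, n = 5). In adult replicates 1 to 4 they were 199.5, 21.0, 2.33 and 2094, a mean of 579 ± 1014 (SD, n = 4). Adult replicates 2 and 3 were thus below every juvenile library, and adult replicates 1 and 4 above all of them. The log2 difference was 3.13 with a standard error of 1.16, and 0.19 with a standard error of 0.96 without adult replicate 4. Sept5, which shares most of the Gp1bb exons, had 124, 89, 75, 26 and 23 counts in juvenile replicates 1 to 5 and 1, 16, 21 and 8 in adult replicates 1 to 4. Its part in the Gp1bb counts was not tested.

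The remaining members were the platelet receptors Gp6 and Treml1 and the tubulin Tubb1, all at 0 counts in the 5 juvenile libraries. Treml1 had 73, 8, 0 and 640 counts in adult replicates 1 to 4. Its adult mean was at least 40.0-fold above the juvenile floor, and at least 5.79-fold without adult replicate 4. Gp6 had 252 counts and Tubb1 had 88 counts in adult replicate 4, and both were at 0 in the other 8 libraries. Their adult means were at least 14.0-fold and 4.90-fold above the juvenile floor, and they rest on that 1 library. A count of 0 allows up to 3 counts in a library.

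Of the 9 members, 3 passed the filter on low counts (Pf4, Itga2b and Gp1bb) and 6 did not. Among the 3, 1 was called higher in adult libraries (Pf4), where 1.89% of all tested genes were. Without juvenile replicates 4 and 5 the log2 differences were 6.28 for Pf4, 2.77 for Itga2b and 3.13 for Gp1bb, and 0 members were called. The call of Pf4 was also lost with the replicate number as a block and with limma voom. With no filter on low counts, 4 of 9 were called (Pf4, Ppbp, Gp9 and Treml1), where 1.28% of 21512 genes with a count were called higher in adult libraries. Without adult replicate 4 that fit called 2 of them, Pf4 and Ppbp, where 210 genes in all were called higher in adult libraries. Ages did not overlap for 2 of 9 members, against 2.71% of the genes with a count. The members were chosen with this difference known, so these shares describe them and test nothing. All 9 had their highest level in adult replicate 4, as did 13.8% of the genes with a count.

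The spread of the members among adult libraries was wide. The standard deviation of log2 CPM over the 4 adult libraries ran from 2.43 for Pf4 to 5.14 for Ppbp, against a median of 0.70 over all tested genes. That median leaves out genes below the filter on low counts, as 6 of the 9 members were. The tested members stood at 2.43 (Pf4), 3.10 (Itga2b) and 3.88 (Gp1bb). Over the 5 juvenile libraries it was 0.98 for Pf4, 0.91 for Itga2b and 0.14 for Gp1bb, against a median of 0.51. Adult replicate 1 was the second highest library for 7 of the 9 members, and the other 2, Gp6 and Tubb1, had no counts outside adult replicate 4.

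Levels were compared between genes per length, as TPM (counts per base of annotated exon, scaled to the same total in each library). In adult replicate 4 Pf4 stood at 6596 TPM (95% Poisson interval 6493 to 6701) and Ppbp at 3983 TPM (3917 to 4049). Gp1bb stood at 393 TPM (378 to 408), Gp9 at 356 TPM (334 to 378) and Treml1 at 141 TPM (130 to 152). Every TPM of Gp1bb, and its place in the order, is uncertain because 91.1% of its exon bases are shared with Sept5. Itga2b had 26.5 TPM (24.2 to 29.0), Tubb1 19.3 TPM (15.5 to 23.7), Gp1ba 18.8 TPM (16.1 to 21.9) and Gp6 13.1 TPM (11.6 to 14.9). In this library the intervals of Gp1bb and Gp9 just overlapped, and those of Tubb1 and Gp1ba overlapped. These intervals, too, cover counting error only, since amplified reads are not independent molecules. They say nothing of the spread between mice. By counts, Pf4 and Ppbp ranked 31 and 33 among all genes of that library. The adult mean TPM was 2176 ± 3029 for Pf4, 1032 ± 1968 for Ppbp and 109 ± 190 for Gp1bb (SD, n = 4). The adult ranges of every pair of neighbours in the order of mean TPM overlapped. In juvenile libraries Pf4 had a mean of 23.6 ± 13.7 TPM, Gp1bb 12.9 ± 1.01 TPM and Itga2b 1.18 ± 0.91 TPM (SD, n = 5).

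Besides Pf4 and Ppbp, the cluster on chromosome 5 holds the CXC chemokine genes Cxcl1, Cxcl2, Cxcl3, Cxcl5 and Cxcl15, whose products mostly attract neutrophils. None of these 5 passed the filter on low counts. Cxcl2 and Cxcl3 had 0 counts in all 9 libraries. Cxcl1 had 24 counts in juvenile replicate 2, 12 in adult replicate 1 and 0 elsewhere. Cxcl5 had at most 2 counts in juvenile libraries and 138, 0, 1 and 82 in adult replicates 1 to 4, and Cxcl15 had at most 6, in adult replicate 4. Adult replicate 4, with 15448 counts of Pf4 and 14010 of Ppbp, thus had 82 counts of Cxcl5, 6 of Cxcl15 and 0 of Cxcl1, Cxcl2 and Cxcl3. DESeq2, which was run without that filter, called Cxcl5 higher in adult libraries (adjusted p = 0.0170).

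A wider list of 52 other genes of megakaryocytes and platelets was read from the same fit. Of these, 51 had a count and 40 were tested. By edgeR, 6 of the 40 were called higher in adult libraries (Srgn, Fcer1g, Plek, Rasgrp2, Myl9 and Bin2), against 1.89% of all tested genes. In juvenile libraries 0 were called higher, with 2 at an unadjusted p under 0.05 and 1 by DESeq2, Meis1. Without adult replicate 4, 3 of 40 were called higher in adult libraries (Srgn, Fcer1g and Plek). The median log2 difference of the 40 was 1.18, against 0.0066 over all tested genes, and 34 of the 40 lay above 0. Ages did not overlap, with adult libraries higher, for 10 of the 40, against 4.08% of all tested genes. The highest level was in adult replicate 4 for 26 of the 51 genes with a count, against 13.8% of all genes with a count. The wider list, too, was chosen with earlier results of these data known, so its shares are descriptive and no test of the list.

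Partners of the member receptors differed. Fcer1g, the Fc receptor gamma chain that signals for GP6 and is also used by macrophages and mast cells, had a mean normalized count of 583 ± 203 in juvenile (SD, n = 5) and 1949 ± 243 in adult libraries (SD, n = 4), with a log2 difference of 1.74, a standard error of 0.25 and an edgeR adjusted p of 0.00285. Without adult replicate 4 its log2 difference was 1.77 and the adjusted p by edgeR was 0.00994. Itgb3, the beta 3 chain that pairs with the product of Itga2b and is also made by osteoclasts, had 3008 ± 880 in juvenile and 3136 ± 541 in adult libraries (SD). Its log2 difference was 0.06 with a standard error of 0.23 and an edgeR adjusted p of 0.944. Gp5, the fourth chain of the von Willebrand factor receptor, had 11, 3, 0, 0 and 2 counts in juvenile replicates 1 to 5 and 49, 55, 0 and 487 in adult replicates 1 to 4. Its log2 difference was 4.99 with a standard error of 1.52 and an edgeR adjusted p of 0.0913.

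Of 7 transcription factors tested, 0 were called by edgeR. At an unadjusted p under 0.05 there were 4 (3 higher in adult and 1 in juvenile libraries), and DESeq2 called 4 (3 and 1). With no filter on low counts, edgeR called 2 of 8 higher in adult libraries. Gata1, which megakaryocytes share with erythroid and mast cells, had 0, 10, 15, 0 and 3 counts in juvenile replicates 1 to 5 and 43, 10, 345 and 496 in adult replicates 1 to 4. Nfe2 had 4, 27, 1, 0 and 7 counts in juvenile replicates 1 to 5 and 1, 69, 315 and 620 in adult replicates 1 to 4. Both were higher in adult replicate 3 than in adult replicate 1, whereas 7 of the 9 members had their second highest level in adult replicate 1. The log2 difference was 4.71 for Gata1 (SE 1.25, edgeR adjusted p = 0.0547) and 4.61 for Nfe2 (SE 1.29, edgeR adjusted p = 0.0690).

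Receptors were mostly too low to test, with 7 of 11 below the filter. Of 4 receptors tested, 0 were called by edgeR, with 2 at an unadjusted p under 0.05 and 1 by DESeq2 (Tbxa2r, the thromboxane receptor). With no filter on low counts, edgeR called 1 of 11 higher in adult libraries, F2rl2 (adjusted p = 0.0217, and 0.0366 without adult replicate 4). DESeq2 called F2rl2 as well. F2rl2 had 1, 0, 0, 0 and 0 counts in juvenile replicates 1 to 5 and 360, 9, 0 and 99 in adult replicates 1 to 4.

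Among granule cargo genes 1 of 8 tested was called. Srgn, the core protein of serglycin proteoglycan of platelet, mast cell and leukocyte granules, had a mean normalized count of 37.7 ± 20.2 in juvenile (SD, n = 5) and 940.3 ± 358 in adult libraries (SD, n = 4). Srgn stood at 1140, 413, 1021 and 1187 in adult replicates 1 to 4, all above the highest juvenile library at 72.1. Its log2 difference was 4.64 with a standard error of 0.42 and an edgeR adjusted p of 0.000159, and 4.53 with an adjusted p by edgeR of 0.000412 without adult replicate 4. Vwf, von Willebrand factor, made by megakaryocytes and endothelial cells, had 10, 10, 18, 34 and 13 counts in juvenile replicates 1 to 5 and 141, 61, 46 and 458 in adult replicates 1 to 4. The log2 difference of Vwf was 2.78 with a standard error of 0.75 and an edgeR adjusted p of 0.0603. Without adult replicate 4 it was 1.74, with an adjusted p by edgeR of 0.271.

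Signalling genes held 3 of the 6 calls. Plek, pleckstrin, a kinase substrate of platelets and leukocytes, had 55.7 ± 29.5 in juvenile and 305 ± 106 in adult libraries (mean normalized count, SD), with a log2 difference of 2.45, a standard error of 0.43 and an edgeR adjusted p of 0.00877. Rasgrp2, which activates integrins through Rap1, had 289.8 ± 75.8 and 647 ± 223, with a log2 difference of 1.16, a standard error of 0.28 and an edgeR adjusted p of 0.0358. Bin2, a membrane-curving protein of blood cells, had 4.15 ± 4.71 and 117 ± 158, at 46.4, 44.0, 24.8 and 353 in adult replicates 1 to 4, with a log2 difference of 4.76, a standard error of 1.20 and an edgeR adjusted p of 0.0445. The call of Bin2 was lost without adult replicate 4, at an adjusted p of 0.204 by edgeR, as was that of Rasgrp2 at 0.0919. Of 6 cytoskeleton genes tested, 1 was called, Myl9, a myosin light chain that smooth muscle also makes, with a log2 difference of 1.66, a standard error of 0.40 and an edgeR adjusted p of 0.0374. Without adult replicate 4 the adjusted p of Myl9 was 0.0929 by edgeR. Of 4 granule biogenesis genes, 0 were called by edgeR, with 1 at an unadjusted p under 0.05 and 1 by DESeq2.

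**Figure D3:**
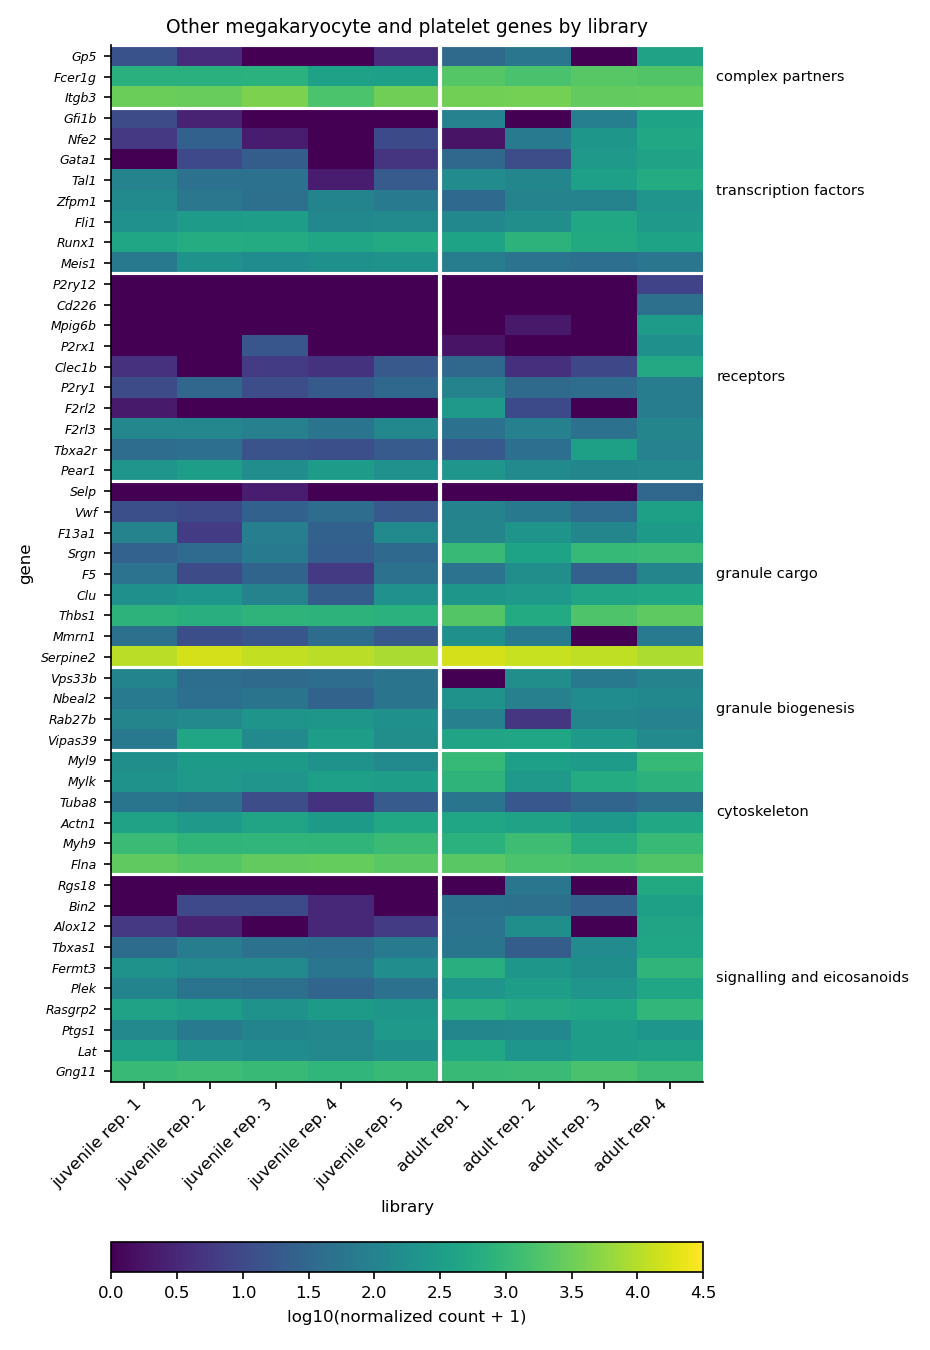
Heat map of log10(normalized count + 1) for the wider list, 1 row per gene shown, grouped by role, and 1 column per library. Srgn is higher in every adult library (mean 940.3) than in any juvenile library (mean 37.7), while Itgb3 has counts in all 9 (means 3008 in juvenile and 3136 in adult libraries).

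Markers of red cells were also highest in adult replicate 4. The 9 erythroid markers had a summed level of 15.5 to 48.9 CPM in juvenile libraries and of 146, 229, 398 and 1309 CPM in adult replicates 1 to 4. Of 7 erythroid markers tested, 6 were called higher in adult libraries by edgeR, 0 of them without adult replicate 4, and all 7 were highest in that library. The summed level of the 9 members was 12.95 to 26.3 CPM in juvenile libraries and 614, 99.2, 62.4 and 4354 CPM in adult replicates 1 to 4. Both lists were highest in adult replicate 4, but adult replicate 3 was the second highest for erythroid markers and the lowest adult library for the members. At most 5 of the erythroid markers were at 0 in a library, and 0 were at 0 in adult replicates 3 and 4. The part of erythroid cells in the member levels was not tested.

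The 10 neutrophil markers had 18.1 to 73.4 CPM in juvenile libraries and 4344, 104, 3497 and 3485 CPM in adult replicates 1 to 4, with 8 of 10 called higher in adult libraries and 7 of 10 without adult replicate 4. No neutrophil marker was highest in adult replicate 4. Neutrophils also make Srgn, Fcer1g and Plek, and their part in those calls was not tested. The 5 mast cell and basophil markers, of which none passed the filter, summed to at most 0.188 CPM in juvenile libraries and to 20.5, 0, 4.95 and 4.13 CPM in adult replicates 1 to 4, with 3 of 5 at 0 in adult replicate 4. The 5 stem and progenitor markers, a group of cells that also use Itga2b, lay at 49.4 to 144 CPM in juvenile and 83.6 to 115 CPM in adult libraries, with 0 of 5 called by edgeR, 0 at an unadjusted p under 0.05 and 0 by DESeq2. Macrophage markers lay at 230 to 430 CPM in juvenile and 379 to 946 CPM in adult libraries, with 0 of 6 tested called by edgeR, 4 at an unadjusted p under 0.05 and 1 by DESeq2. B cell markers lay at 36.2 to 54.6 and 21.7 to 188 CPM, with 0 of 5 tested called by edgeR, 2 at an unadjusted p under 0.05 and 2 by DESeq2.

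Osteoblast and osteoclast markers had the highest sums of the lists in every library. Osteoblast markers lay at 90631 to 115336 CPM in juvenile and 33697 to 50862 CPM in adult libraries, lowest in adult replicate 4, with 3 of 6 called higher in juvenile and 1 higher in adult libraries. Osteoclast markers lay at 12776 to 20995 and 16202 to 25246 CPM (1 of 6 called, higher in adult), chondrocyte markers at 354 to 973 and 583 to 4047 CPM (1 of 4 tested called, higher in adult) and stromal markers at 306 to 472 and 422 to 1180 CPM (1 of 6 called in each direction).

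**Figure D4:**
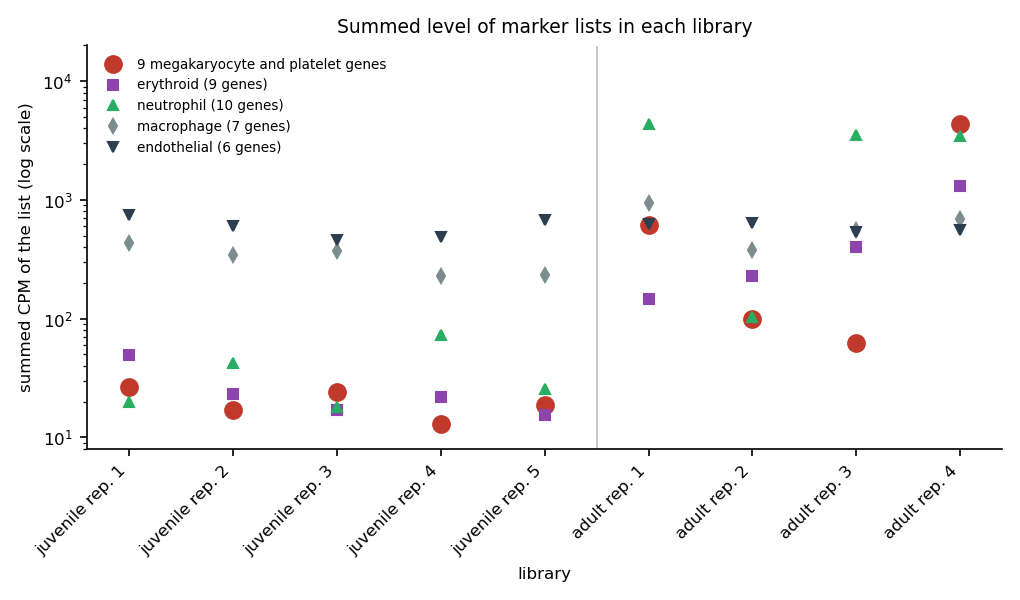
Summed CPM (log scale) of the 9 megakaryocyte and platelet genes and of 4 marker lists in each library, with a grey line between the ages. The members reach 4354 CPM in adult replicate 4 and erythroid markers 1309 CPM, while endothelial markers stay between 463 and 739 CPM in all 9 libraries.

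Genes that followed the members across libraries were ranked by Pearson's correlation over 9 libraries, after the mean of each age was taken from the log2 CPM so that the age difference did not enter. The 10 most alike of 13415 genes were Gm11532, Slc38a7, Slpi, Sae1, Zfp870, Serpinb6b, C430049B03Rik, Utp11, Tln1 and Evi5l, with r from 0.957 to 0.931. None of these was in the wider list, whose best gene was Gp5 at rank 117 with r = 0.827, followed by Vwf at rank 146 with r = 0.815. The points share the library, and the members' mean profile stood 4.14 above the adult mean in adult replicate 4 on the log2 scale, while the 5 juvenile libraries lay between -0.27 and 0.22. The likeness therefore rests on the 4 adult points. Tln1 encodes talin, which activates integrins in platelets and many other cells.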

How the data were processed

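RNA of laser-microdissected capillaries with surrounding cells was amplified from poly-A with SMART-Seq v4 and sequenced as paired-end reads. Per the labels and the study's methods, the authors mapped reads to mm10 (GRCm38) with TopHat2 and Bowtie2, and featureCounts is in the submitters' processing notes. Strand setting, handling of pairs and annotation release are not given in the sources used here. The deposited values are raw counts per Ensembl gene, 1 table per library. Symbols came from GENCODE annotation of GRCm38, which holds 96.2% of the 39179 identifiers. Promoter windows came from RefSeq (GRCm38.p6), and all 9 members matched.

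Juvenile and adult libraries were tested against each other in edgeR 4.0.16 with R 4.3.3 (filterByExpr, TMM, quasi-likelihood F test without covariates, Benjamini-Hochberg adjustment over all tested genes), with DESeq2 1.42.0 and limma 3.58.1 among the alternatives. The fit was tested on simulated counts, in which no library was made to stand apart as adult replicate 4 did. That test does not bear on this library, and its outcome is not reported here. The log2 CPM used a prior count of 2. Figures used matplotlib 3.10.9. The members and lists were chosen with earlier results of these data known. The text names the 9 members, 7 set genes of the wider list (1 of them is not reported here) with those called, 5 chemokine neighbours, the 10 most alike genes and the marker lists by their sums. Meis1, Tbxa2r and F2rl2 were named after their values were seen. Ahsp, an erythroid marker, was not matched. Libraries are treated as separate mice, as the study describes them. Where libraries shared an animal, p-values would measure technical spread. Same-numbered libraries did not deviate together (correlations of -0.032 to 0.030) and were not paired.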

Additional observations from a re-analysis of the deposited data

Results flagged for a closer look

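A library was set apart from the rest of its age, by the gap to its nearest neighbour over the whole range of normalized counts, in 12 of 37 groups of libraries examined. In 9 of the 12 the library was adult replicate 4. In 4 of the groups (Gp6 and Tubb1 in adult libraries and Cxcl1 in either age) only 1 library had a count, which fixes the gap at 1 and tests nothing. Of the other 33 groups 8 were set apart, 7 of them by adult replicate 4. These groups share the same libraries and include members chosen with their values known. They are therefore not independent, and no number expected by chance is given.

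Among the members, the gap of adult replicate 4 was 0.972 of the range for Ppbp, 0.939 for Gp1ba, 0.906 for Gp1bb, 0.951 for Gp9, 0.895 for Treml1 and 1 for both Gp6 and Tubb1. Pf4 and Itga2b were not set apart in the adult group. In the wider list, adult replicate 4 had a gap of 0.849 for Gp5 (383 normalized counts, others 0 to 57.6) and 0.934 for Bin2 (353, others 24.8 to 46.4). Juvenile replicate 1 had a gap of 0.783 for Gp5 (12.5 normalized counts, others 0 to 2.71). Cxcl1 had a gap of 1 in juvenile replicate 2 (21.7, others 0) and of 1 in adult replicate 1 (8.71, others 0).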

How the results depend on the processing

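None of the 6 called genes of the wider list and none of the 3 tested members changed direction in any alternative run. The difference of Itgb3, which was not called, was 0.06 and lay below 0 without juvenile replicate 4 (-0.09), without juvenile replicates 4 and 5 (-0.09) and without adult replicate 2 (-0.0068). Genes called between the ages, 520 in the reported fit, were 1490 by DESeq2 (771 higher in adult, 719 in juvenile), 89 with the replicate number as a block (36 and 53), 73 without juvenile replicates 4 and 5 (31 and 42) and 262 to 651 with each library left out in turn (117 to 345 and 145 to 306). With no filter and no adult replicate 4, an alternative chosen after seeing the data, 384 were called (210 higher in adult, 174 in juvenile). The wider list, with 6 genes higher in adult libraries, had 19 by DESeq2, 11 with no filter, 2 with the replicate block, 2 without juvenile replicates 4 and 5 and 3 to 14 with a library left out (3 each without juvenile replicate 2, 3, 4 or 5 or adult replicate 4, 14 without adult replicate 2 and 10 without adult replicate 3). DESeq2 called 1 wider gene higher in juvenile libraries and 1 chemokine neighbour, Cxcl5. The members, with 1 called, had 3 by DESeq2, 0 by limma voom, 4 with no filter, 3 with at least 10 counts in 2 libraries, 0 with the replicate block, 0 without juvenile replicates 4 and 5, 2 with no filter and no adult replicate 4 and 1 to 3 with a library left out (2 without juvenile replicate 1, 2 without adult replicate 2 and 3 without adult replicate 3). Of the 10 genes most like the members, 1 stayed among the 10 with Spearman's rho and 2 without the filter on low counts, the latter chosen after seeing the data. The calls of Srgn and Fcer1g held in all 19 alternatives, while Myl9 lost its call in 11, Bin2 in 10, Rasgrp2 in 9 and Plek in 2. The causes were not tested. Low counts limit 6 members, which have at most 1 count in every juvenile library.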

Other observations

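Genes with at least 50 counts in 1 library and at most 3 in every other were counted, a rule chosen after seeing the data. There were 42 such genes in adult replicate 4, 27, 13 and 18 in adult replicates 1 to 3, and 0 to 3 in each juvenile library. The 42 include the members Gp6 and Tubb1 and, from the wider list, Mpig6b (389 counts), an inhibitory receptor of megakaryocytes, and Cd226 (56 counts), an adhesion receptor of platelets and lymphocytes. They also include Jchain (240 counts) and Iglv1 (86 counts), genes of antibody-producing cells. The listed B cell markers summed to 81.5, 21.7, 188 and 79.7 CPM in adult replicates 1 to 4, and 0 were highest in adult replicate 4. The 27 of adult replicate 1 include Tpsb2 (998 counts) and Mrgprb2 (186 counts), both known from connective tissue mast cells. Of the 5 listed mast cell and basophil markers, however, 4 had 0 counts in adult replicate 1. The genes named here from the 42 and the 27 were chosen after their values were seen.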
